A study of Gallus gallus with 60 samples.

Results

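The comparison concerns the size of the group in which white laying hens were kept. All 28 hens of the Lohmann Selected Leghorn (LSL) line were taken, by the line and group size in the sample labels, out of 60 hens in all. Of these, 15 LSL layers came from compartments of 54 hens and 13 from compartments of 36 hens. The other 32 hens, of the Lohmann Brown (LB) line, serve here only to show where LSL differed. All hens were 65 to 67 weeks old and housed in the same small group housing system. They had the vaccinations usual for laying hens, and the study describes no other treatment. The compartments of 54 were wider, so that floor space per hen was alike. The number of flock mates and the width of the compartment thus varied together, and their effects cannot be told apart. RNA was taken from the posterior cerebrum, on the left side in 1 LSL hen of each group size and on the right in the other 26 LSL hens. Behaviour, plumage and skin lesions were used in the study to tell stressed from unstressed hens, but the labels used here do not give this. Several hens were sampled per compartment, but the sources used here do not tie hens to compartments or tiers. All hens were treated as independent, so that standard errors may be too small. Effects of compartment or tier cannot be told apart from those of group size.

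In poultry, the number of flock mates sets how often a hen meets birds it knows and how ranks are settled. Stress acts in the brain through corticotropin-releasing hormone (CRH), which starts the release of glucocorticoids, and social behaviour involves serotonin, dopamine and the vasotocin and mesotocin peptides. Neuronal activity is followed within minutes by the immediate early genes, of which FOS and EGR1 are the usual markers. The samples were taken without meninges but also hold glia, vessels and blood, and fewer cells of a type cannot be told apart from less RNA per cell.

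Each hen had 1 Affymetrix chicken array with 38535 probe sets. The deposited values were log2 signals from which the median of each probe set had been removed, separately over hens 1 to 30 and over hens 31 to 60 of the series. A value of 0 is therefore the middle of 1 array set and not a level of expression, and the presence of brain markers could not be checked. The array sets held 8 and 7 LSL hens of group size 54, against 7 and 6 LSL hens of group size 36. The set was a block in the limma fits over both sets that are reported here. Differences are log2, 54 minus 36, so that a positive value means higher in the larger group. The measures of RNA quality did not differ beyond the spread of the hens. The signal at the 5′ end of actin minus that at its 3′ end averaged -0.112 ± 0.375 in LSL 54 hens and -0.0471 ± 0.181 in LSL 36 hens (SD, permutation p = 0.668, adjusted p = 0.835 over 5 array measures), with hen 9 of group size 54 lowest at -1.33. Hens 1 and 27, both of group size 36, stood apart from the rest of their group: the interquartile range over the array of hen 1 was 0.304, the largest of all LSL hens, and the lowest scores on the first principal component were -42.2 in hen 1 and -27.0 in hen 27.

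A single probe set, that of MRPS16, differed between the group sizes. MRPS16 encodes a protein of the small subunit of the mitochondrial ribosome, which translates the respiratory chain subunits that are encoded in the mitochondrial genome. LSL 54 hens had centred log2 signals from -0.40 to 0.19 with a median of 0.00, against -0.76 to -0.28 with a median of -0.49 in LSL 36 hens. All 15 LSL 54 hens lay above the median of the LSL 36 hens of their own array set, and the groups overlapped only at the low end of the 54 hens. MRPS16 rose by 0.40 ± 0.06 (SE, 95% confidence interval 0.28 to 0.53), which is 1.32-fold, with an adjusted p = 0.0081 in limma. It was the 1 called probe set of 38535, or 0.0026%.

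The difference of MRPS16 was present in both array sets. In hens 1 to 30 LSL 54 layers had values of -0.36 to 0.19, against -0.58 to -0.28 in LSL 36 layers, a difference of 0.34. In hens 31 to 60 the values were -0.40 to 0.12 in LSL 54 layers and -0.76 to -0.40 in LSL 36 layers, a difference of 0.47. In each set, 1 hen of the larger group reached into the range of the smaller group. Neither set alone passed the adjusted threshold (adjusted p = 0.67 and 0.39). The call was also lost without hens 1 and 27, where the difference was 0.40 and the adjusted p = 0.052, and with a mean trend and robust variances in limma, with an adjusted p = 0.12.

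**Figure D1:**
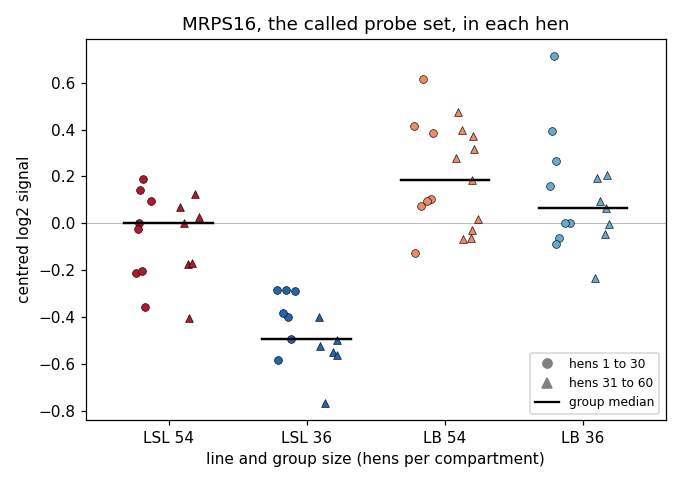
Centred log2 signal of the called MRPS16 probe set in each hen, by line and group size. Circles are hens 1 to 30, triangles hens 31 to 60 and bars the median over the group. The LSL 36 hens lie between -0.76 and -0.28, below all LB hens and most LSL 54 hens.

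MRPS16 was measured by 3 further probe sets, and these did not move by the same amount. The nearest had a difference of 0.17 (unadjusted p = 0.0032, adjusted p = 0.34), and the others differed by 0.06 and -0.02. In LB the nearest probe set differed by 0.22 (unadjusted p = 6.5e-04), more than in LSL, and the unadjusted p for the difference between the lines was 0.58. At the called probe set LB hens ran from -0.13 to 0.62 with a median of 0.18 in group size 54, and from -0.23 to 0.71 with a median of 0.06 in group size 36. LB hens of both group sizes thus lay above the LSL 36 hens throughout. Its difference in LB was 0.10 (unadjusted p = 0.14), and the group size effect was larger in LSL than in LB by 0.30 ± 0.10 (SE, unadjusted p = 0.0039), which did not pass the adjusted threshold (adjusted p = 0.25). Other mitochondrial ribosomal proteins were then looked up, a family chosen after the MRPS16 value was known. Of its 96 probe sets, MRPS16 included, 14 (14.6%) were higher in LSL 54 hens at an unadjusted p under 0.05 and 0 lower, beside 4.88% higher and 6.85% lower over all probe sets. The count without hens 1 and 27 was 17 higher and 0 lower, beside 3.18% higher and 3.78% lower over all probe sets. Some genes have several of these probe sets. With 1 probe set per gene and all LSL hens, 8 of 67 genes were higher and 0 lower, beside 5.87% higher and 4.39% lower over all genes. The probe set of largest residual spread stood for each gene. For MRPS16 this was not the called one but the one with a difference of -0.02, so that MRPS16 is not among the 8. Over the 96 probe sets of the family the median difference was 0.05, beside -0.01 over all probe sets. It was 0.07 in hens 1 to 30 and 0.01 in hens 31 to 60. The median of the family in LB was also 0.05.

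Across the array the differences were small. The median absolute difference over all probe sets was 0.055 and the median SE 0.055. A difference of 2-fold either way lay outside the 95% interval for 38473 probe sets, or 99.8%, and one of 0.5 on the log2 scale for 37827, or 98.2%. An absolute difference of at least 1 was estimated for 3 probe sets and of at least 0.5 for 33.

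More probe sets than the nominal share had a small unadjusted p. In LSL 54 hens 1881 probe sets (4.88%) were higher and 2641 (6.85%) lower at an unadjusted p under 0.05, 4522 together. With 1 probe set for each of 13009 named genes, 764 genes (5.87%) were higher and 571 (4.39%) lower. Without hens 1 and 27 the count over all probe sets was 2682 (6.96%), and of the genes 519 (3.99%) were higher and 301 (2.31%) lower. This fit removed hens from group size 36 only, and the part of the smaller number of hens was not tested. The first principal component, with 13.6% of the variance, averaged 5.87 ± 10.2 in LSL 54 hens and -6.77 ± 15.4 in LSL 36 hens (SD, permutation p = 0.0124, adjusted p = 0.0496 over 4 components). The mean over LSL 36 hens without hens 1 and 27 was -1.71, and the difference then 7.58 in place of 12.6. These hens had the lowest scores, so that leaving them out makes the difference smaller by construction. The highest scores were 27.8 in hen 5 and 19.9 in hen 9, both of group size 54, and these hens were kept. This component was examined after other values had been seen. Genes of a common component vary together in the same hens, and their unadjusted p-values are not independent of each other.

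The same direction in both array sets was more frequent than the opposite one. The difference had the same sign in both sets for 63.0% of probe sets, and the differences of the sets had a Pearson correlation of 0.29 and a Spearman correlation of 0.33 across probe sets, which are not independent replicates. Of 2846 probe sets with an unadjusted p under 0.05 in hens 1 to 30, 2093 (73.5%) had the same sign in hens 31 to 60, and 177 were under 0.05 in both sets with the same sign against 19 with opposite signs. In limma, 0 probe sets passed the adjusted threshold in either set alone, with 2846 and 2358 at an unadjusted p under 0.05.

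**Figure D2:**
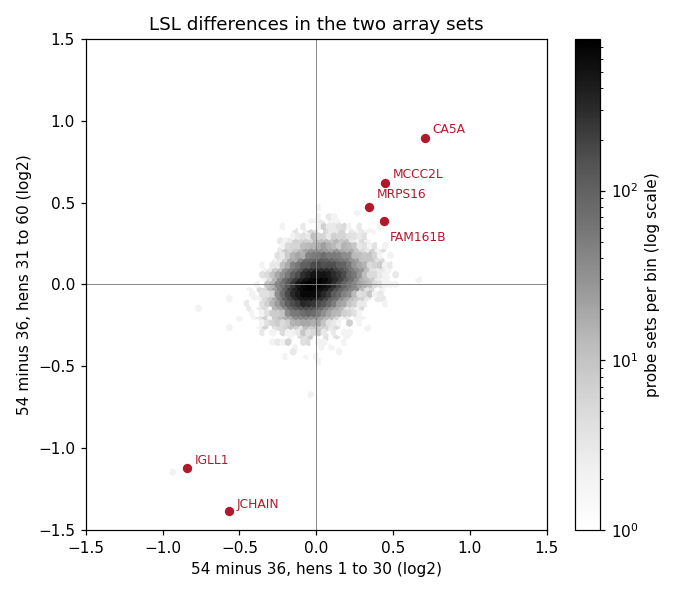
Difference between group size 54 and 36 in LSL for each probe set, with hens 1 to 30 on the x axis and hens 31 to 60 on the y axis, both on the log2 scale, and shading by the number of probe sets per bin on a log scale. Most probe sets lie near 0 in both sets, and a few named ones lie apart on the same side. The named ones were picked for labelling, FAM161B and MCCC2L by a rule that required the same sign in both sets. Not drawn are 3 probe sets beyond 1.5 in either set. Among them are SRI (-1.99 in hens 1 to 30 and 0.25 in hens 31 to 60) and SUCLG2 (0.02 and -1.94).

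The genes next to MRPS16 did not pass the threshold, and their values are given as a description. These are 23 probe sets with 1 gene symbol and the same sign in both array sets, those with the smallest unadjusted p in each direction. Among those with higher values, FAM161B, a ciliary and centrosomal protein, ran from -0.33 to 0.44 with a median of 0.07 in LSL 54 hens, against -0.92 to -0.01 with a median of -0.35 in LSL 36 hens. Its difference was 0.41 ± 0.08 (SE, adjusted p = 0.23). A second FAM161B probe set differed by 0.20 and the other ones by -0.10 and 0.07. MCCC2L is named after the carboxylase of leucine breakdown. Its values ran from 0.01 to 1.13 with a median of 0.45 in LSL 54 hens, against -0.63 to 0.89 with a median of -0.11 in LSL 36 hens, a difference of 0.53 ± 0.11 (SE, adjusted p = 0.23), and its second probe set differed by 0.35. The groups overlapped for both genes, while all 15 LSL 54 hens lay above the LSL 36 median of their own array set.

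The other genes with higher values had smaller differences. BVES, a membrane protein that binds cyclic AMP, differed by 0.27, and EPHA6, an ephrin receptor of growing axons, by 0.29. The other EPHA6 probe sets differed by 0.30, 0.12 and -0.08, and those of BVES by -0.04 and 0.03. The difference of BVES was thus not shared by its other probe sets. SLC24A4, a potassium-dependent sodium and calcium exchanger, differed by 0.24, RAB8B, a small GTPase of vesicle transport, by 0.23, and CLASP1, which stabilises microtubule ends, by 0.23. The splicing factor CWC25, the Mediator subunit MED6, the centriolar POC1A and LRRC28 had differences of 0.20, 0.29, 0.23 and 0.16. Adjusted p-values of these genes lay at 0.29 or above. A second probe set was close to the printed value for SLC24A4 (0.29), RAB8B (0.20) and POC1A (0.19). The remaining probe sets differed by 0.02 for SLC24A4, -0.08 and 0.06 for RAB8B, and 0.02 and 0.01 for POC1A. The second probe set of MED6 differed by 0.07, those of CLASP1 lay between -0.08 and 0.07 and those of LRRC28 at -0.05 and 0.01. The higher values of MED6, CLASP1 and LRRC28 were thus not shared over the gene.

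Among the genes with lower values, TRIM27.1, annotated as a tripartite motif protein, was nearest to the threshold. Its values ran from -0.24 to 0.05 with a median of -0.09 in LSL 54 hens, against -0.08 to 0.31 with a median of 0.11 in LSL 36 hens, a difference of -0.21 ± 0.04 (SE, adjusted p = 0.20). All 15 LSL 54 hens lay below the LSL 36 median of their own set, although the ranges overlapped, and a second probe set differed by 0.01. NSMF links NMDA receptors at the synapse to gene expression in the nucleus. Its values ran from -0.39 to 0.04 with a median of -0.10 in LSL 54 hens, against -0.07 to 0.34 with a median of 0.12 in LSL 36 hens, a difference of -0.23 ± 0.05 (SE, adjusted p = 0.28). Its other probe sets differed by 0.15, 0.07, -0.04 and 0.04, so the lower value was not shared by them. DSCAML1, an adhesion molecule by which neurites of like neurons avoid each other, differed by -0.22, ANKRD34B by -0.26, and TGFA, a ligand of the EGF receptor, by -0.23. The second probe sets of DSCAML1 and ANKRD34B differed by -0.01 and -0.05.

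The other genes with lower values were of mixed function. LOXL4, a lysyl oxidase of the extracellular matrix, differed by -0.25, EPB41, a protein of the membrane skeleton of red cells and neurons, by -0.26, and TMED10, a cargo receptor of the early secretory pathway, by -0.26. The other EPB41 probe sets differed by 0.08, 0.04 and -0.03, those of LOXL4 by -0.11 and -0.04 and that of TMED10 by -0.09, so that none of them was as low as the probe set named. The ranges of both group sizes overlapped for these genes over the 28 hens. FKBP8, a mitochondrial immunophilin, differed by -0.18, ARHGAP40 by -0.18, TMIE, a part of the transduction channel of hair cells, by -0.17, and TNRC6C, of the miRNA silencing complex, by -0.17. The second probe sets of FKBP8 and TNRC6C differed by -0.05 and 0.02.

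**Figure D3:**
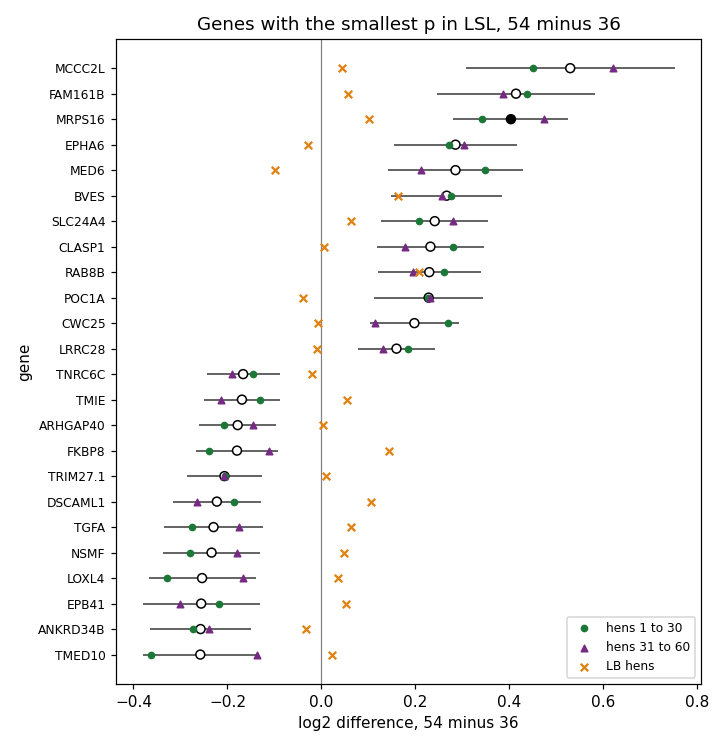
Log2 difference between group size 54 and 36 for MRPS16 and the 23 probe sets next to it. Large circles with lines are the LSL difference with its 95% interval (filled where the adjusted p passed, which was MRPS16 only), small circles and triangles the differences in each array set, and crosses the difference in LB, which lay between -0.10 and 0.21.

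LB hens give the same contrast in samples that had no part in choosing these 24 probe sets. Of the 12 with higher values in LSL 54 hens, 7 were also positive in LB, and of the 12 with lower values, 2 were also negative in LB, or 9 of 24 with the same sign. An unadjusted p under 0.05 was found in LB for 4 of them, beside 4560 of 38535 probe sets (11.8%) in LB over the whole array. At these probe sets RAB8B differed by 0.21 and BVES by 0.16 in LB, the same way as in LSL. FKBP8 differed by 0.14 and DSCAML1 by 0.11, against the LSL direction. The other probe sets of RAB8B differed in LB by -0.17, -0.02 and -0.08, and those of BVES by -0.08 and 0.09. Those of FKBP8 and DSCAML1 differed in LB by -0.03 and 0.08. In the fit over all hens, the difference of the group size effect between the lines passed the adjusted threshold for 0 of 38535 probe sets in limma, while 4975 (12.9%) had an unadjusted p under 0.05. A difference between the lines in the response to group size was thus not detected for any probe set, which does not show that the lines responded alike.

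The largest differences by size were found for immunoglobulin genes, and they also did not pass. IGLL1 is the annotation of the lambda light chain, and 5 probe sets whose names share a stem had differences from -0.97 to -1.05 (unadjusted p = 0.014 to 0.032). They are counted here as 1 measurement, although shared sequence was not checked. At the probe set shown, LSL 54 hens ran from -2.21 to 1.85 with a median of 0.08, against -2.17 to 2.89 with a median of 0.55 in LSL 36 hens, a difference of -0.97 ± 0.43 (SE, adjusted p = 0.40). The ranges of the groups overlapped almost fully, with a spread among hens far above that of most genes. The other 3 probe sets of IGLL1 differed by -0.14, -0.06 and -0.04. JCHAIN, which joins the units of secreted IgM and IgA, ran from -3.52 to 2.44 with a median of 0.23 in LSL 54 hens, against -2.49 to 2.45 with a median of 0.81 in LSL 36 hens. Its difference of -0.95 ± 0.51 (SE, adjusted p = 0.46) was -0.57 in hens 1 to 30 and -1.39 in hens 31 to 60. In LB the differences had the other sign, 0.68 for IGLL1 and 0.40 for JCHAIN, and the difference between the lines had an unadjusted p = 0.0074 for IGLL1 (adjusted p = 0.28) and 0.076 for JCHAIN. Hen 1 was the lowest LSL 36 hen for both genes, and without hens 1 and 27 both differed by -1.15.

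Some genes with large differences had hens in separate clusters at 1 probe set, and these were singled out after their values were seen. GABRB2, the beta 2 subunit of the GABA-A receptor, ran from -0.35 to 3.04 with a median of 0.00 in LSL 54 hens, against -0.34 to 0.09 with a median of -0.07 in LSL 36 hens. Values above 1 occurred in 4 of 15 LSL 54 hens and in 0 of 13 LSL 36, 0 of 17 LB 54 and 0 of 15 LB 36 hens. The difference was 0.71 ± 0.30 (SE, adjusted p = 0.38), and the other 11 LSL 54 hens were at 0.25 or below. The other GABRB2 probe sets differed by 0.47 and 0.09. CA5A, a mitochondrial carbonic anhydrase, ran from -0.88 to 1.36 with a median of -0.03 in LSL 54 hens, against -2.23 to 0.94 with a median of -0.41 in LSL 36 hens, a difference of 0.79 ± 0.28 (SE, adjusted p = 0.35). Values below -1 occurred in 0 of 15 LSL 54 and 6 of 13 LSL 36 hens. In LB the low cluster held 8 of 17 hens of group size 54 and 4 of 15 of group size 36, so that the difference there was -0.93. The other CA5A probe sets differed by -0.02 and 0.01.

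**Figure D4:**
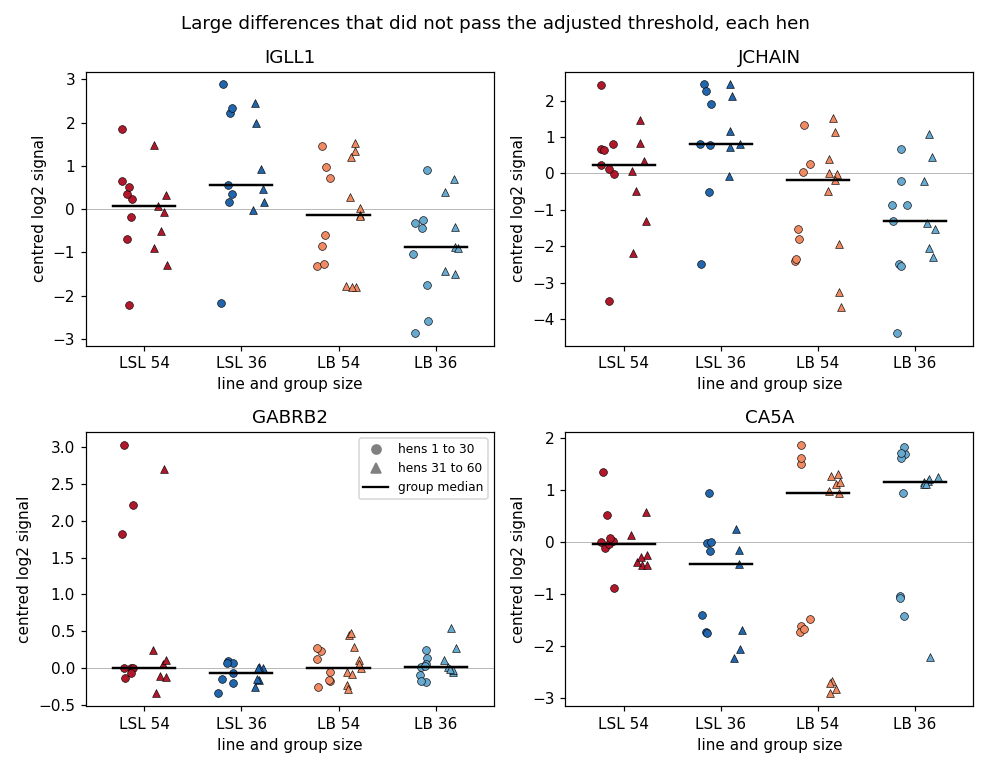
Centred log2 signal of IGLL1, JCHAIN, GABRB2 and CA5A in each hen, by line and group size. Circles are hens 1 to 30, triangles hens 31 to 60 and bars group medians. IGLL1 and JCHAIN spread widely in all groups, GABRB2 is above 1 in 4 LSL 54 hens only, and CA5A falls into clusters in both lines.

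Further large values were found for CCN3, a secreted matricellular protein (0.96 ± 0.58, SE), LARP4B, an RNA-binding protein (0.83 ± 0.42), and COMTD1, a methyltransferase (0.57 ± 0.18), with adjusted p-values of 0.49, 0.44 and 0.34. The second CCN3 probe set differed by 0.01 and those of LARP4B by 0.56 and 0.34. COMTD1 differed by 0.89 in hens 1 to 30 and 0.19 in hens 31 to 60. SRI encodes sorcin, a calcium-binding protein of the endoplasmic reticulum. In hens 1 to 30 its probe set with the largest spread ran from -4.96 to 2.39 in LSL 54 hens and from 2.10 to 3.14 in LSL 36 hens, a difference of -1.99, whereas in hens 31 to 60 LSL 54 hens ran from 6.73 to 7.73 and LSL 36 hens from 6.61 to 7.76, a difference of 0.25. The sets thus disagreed in sign, and the other SRI probe sets differed by 0.08 and 0.04. SUCLG2, a subunit of succinate-CoA ligase, differed by 0.02 in hens 1 to 30 and -1.94 in hens 31 to 60, and its other probe sets by 0.20, 0.08 and 0.02 over both sets.

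31 gene lists of stress, transmitter, immune, metabolic and cell type genes were described, each gene with its probe set of largest residual spread. The other probe sets of a gene and its differences within each array set are given for some genes only. No member of any list passed the adjusted threshold, and counts below are at an unadjusted p under 0.05, to be read against 5.87% higher and 4.39% lower over all genes. Counts without hens 1 and 27 are to be read against 3.99% higher and 2.31% lower. The median difference over all genes was 0.01. Of 52 list genes with an unadjusted p under 0.05, 31 also had one under 0.05 with the same sign without hens 1 and 27, and 21 did not. These 21 included PTS, GABRB2, GABRA5, TEF, RARB, SDF2L1, ATP5C1, RPS25, FDPS, LY6E, CCL19, TNFRSF13B, SLC4A4, ESAM, LCK, FOLR1, CFAP43, TBX18 and SIM1, whose values below are to be read with this.

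Genes of stress and activity showed few small p-values. Of 17 immediate early genes, 0 were higher and 0 lower, with a median of 0.00. FOS ran from -0.21 to 0.31 with a median of 0.04 in LSL 54 hens, against -0.25 to 0.12 with a median of -0.07 in LSL 36 hens, a difference of 0.09 ± 0.05 (SE, adjusted p = 0.49). The ranges overlapped, as they did for EGR1, with a difference of 0.11 ± 0.10. Of 20 genes of CRH and glucocorticoid signalling, 0 were higher and 0 lower, with a median of 0.02. CRH itself differed by -0.04 ± 0.07, NR3C1, the glucocorticoid receptor, by 0.03 ± 0.06, and FKBP5, a glucocorticoid-induced co-chaperone of that receptor, by 0.00 ± 0.14 (SE). Of 29 heat shock proteins and chaperones, 0 were higher and 0 lower, with 0.07 ± 0.04 for HSPA8 and -0.30 ± 0.17 for HSP90AA1. At this HSP90AA1 probe set the lowest LSL 54 hen was at -1.77, against -0.55 for the lowest LSL 36 hen, and a second probe set differed by 0.01. Of 17 genes of the unfolded protein response, 1 was higher, SDF2L1 with 0.13.

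The lists of transmitter systems had 0 to 3 genes in either direction. Of 29 genes of monoamines, 1 was higher, PTS, an enzyme of tetrahydrobiopterin synthesis, with 0.13, and 0 were lower. TPH2, which makes serotonin in neurons, differed by 0.15 ± 0.14 and TH, which makes the precursor of dopamine, by -0.03 ± 0.05 (SE). Of 38 neuropeptides and their receptors, 0 were higher and 0 lower, with AVP, the vasotocin gene, at -0.07 ± 0.29 and PENK, the enkephalin precursor, at -0.40 ± 0.26 (SE). Of 26 genes of glutamate receptors and the excitatory synapse, 0 were higher and 3 lower. These were GRIK2, a kainate receptor, with -0.22, GRIA1, an AMPA receptor, with -0.12, and CAMK2A, a kinase of synaptic plasticity, with -0.31, and 3 were lower without hens 1 and 27. GRIA1 ran from -0.25 to 0.23 with a median of 0.00 in LSL 54 hens, against -0.02 to 0.32 with a median of 0.12 in LSL 36 hens, so that the groups overlapped over most of their range. Of 23 GABA genes 1 was higher, GABRB2, and 1 lower, GABRA5 with -0.36, and of 28 genes of vesicle release 0 were higher and 0 lower.

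Growth factor genes had a median of -0.07, with 0 of 24 higher and 3 lower. The lower ones were NGFR, the low-affinity neurotrophin receptor, with -0.15, DCX, a microtubule protein of young neurons, with -0.16, and IGF1 with -0.11, while BDNF was at 0.00 ± 0.09 (SE). The 3 lower genes are 12.5% of the list, beside 4.39% over all genes. Of 18 clock genes 1 was lower, TEF with -0.13. Of 25 nuclear receptors and related genes, 3 were higher and 2 lower. STAR, which brings cholesterol to the site of steroid synthesis, ran from -0.26 to 0.06 with a median of -0.13 in LSL 54 hens, against -0.14 to 0.23 with a median of 0.05 in LSL 36 hens, a difference of -0.16 ± 0.04 (SE, adjusted p = 0.33). STAR was at 0.10 in LB. PPARA, a receptor for fatty acids, differed by 0.22, RARB, a retinoic acid receptor, by 0.26, and THRSP, a thyroid hormone responsive gene, by -0.11.

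Genes of mitochondria and ribosomes had mostly positive differences in the fit over all LSL hens. Of 47 genes of oxidative phosphorylation, 3 were higher and 0 lower at an unadjusted p under 0.05. A positive difference was found for 40 of 47, beside 6865 of 13009 over all genes, and the list median was 0.05. This median was 0.07 in hens 1 to 30, 0.02 in hens 31 to 60 and 0.01 in LB. The 3 higher genes were ATP5O and ATP5C1 of the ATP synthase with 0.29 and 0.16, and NDUFS8 of complex I with 0.10. The 3 genes are 6.38% of the list, near the 5.87% of all genes. The mean over the list ran from -0.10 to 0.15 with a median of 0.03 in LSL 54 hens, against -0.10 to 0.09 with a median of -0.04 in LSL 36 hens, and the ranges overlapped nearly in full. Of 58 cytosolic ribosomal proteins, 3 were higher, RPL27A with 0.30, RPLP0 with 0.10 and RPS25 with 0.17, and 0 lower. The median of this list was 0.06 in hens 1 to 30 and 0.00 in hens 31 to 60. Of 30 genes of oxidative stress and hypoxia, 1 was higher, HIF1A, the oxygen-regulated transcription factor, with 0.18. Of 28 genes of cholesterol and fatty acid synthesis, 1 was higher, FDPS with 0.12.

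In immune lists the small p-values went in either direction. Of 26 interferon-induced genes, EIF2AK2 and ADAR, both sensors or editors of double-stranded RNA, were higher with 0.16 and 0.09, and LY6E was lower with -0.19. Of 36 cytokines, chemokines and acute phase genes, 1 was higher, SOCS1, an inhibitor of cytokine signalling, with 0.18, and 5 were lower, among them the acute phase protein ORM1 with -0.12, LITAF with -0.17 and the lymphoid chemokine CCL19 with -0.18. The lower genes numbered 3 without hens 1 and 27. Of 23 genes of antigen presentation, 1 was higher, NFYB, a transcription factor of MHC promoters, with 0.21. Of 12 immunoglobulin and B cell genes, 2 were lower, IGLL1 and the plasma cell receptor TNFRSF13B with -0.13, with a list median of -0.11 (-0.07 without hens 1 and 27).

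**Figure D5:**
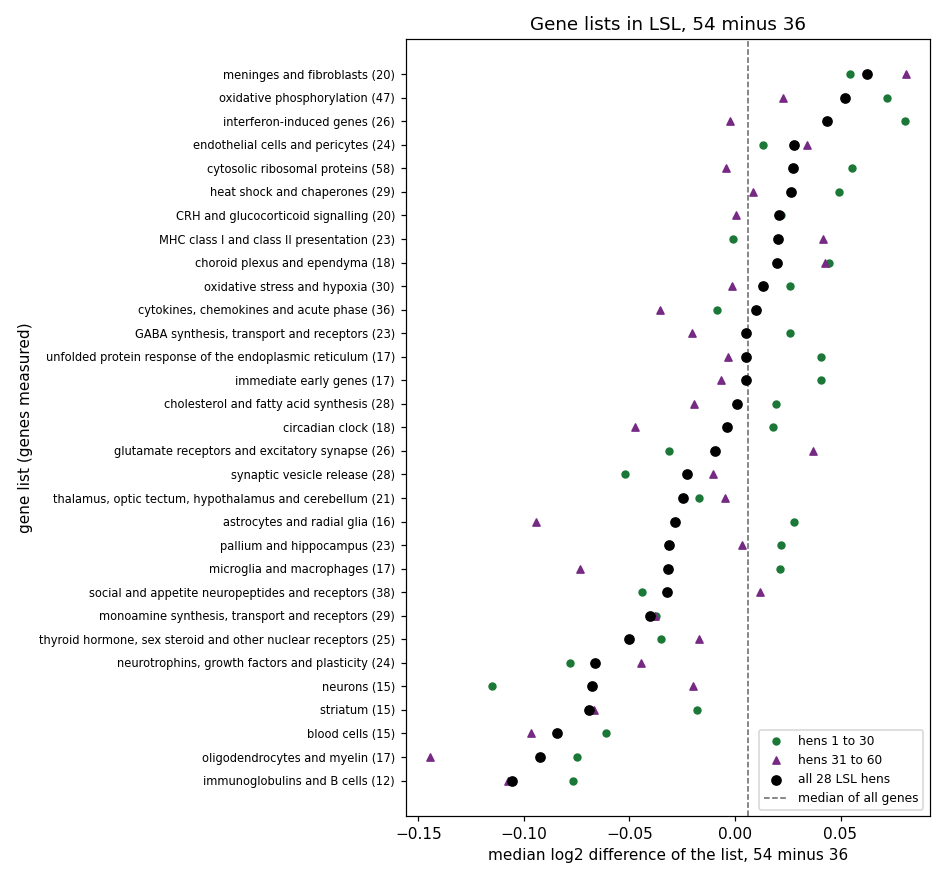
Median log2 difference between group size 54 and 36 in LSL of each gene list, with the number of genes measured in brackets. Black points are all LSL hens, circles hens 1 to 30, triangles hens 31 to 60 and the dashed line the median of all genes, 0.01. The medians over all LSL hens lie between -0.11 and 0.06, and those within 1 array set between -0.14 and 0.08.

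Markers of other cells and of neighbouring regions are given because the tissue piece can differ between hens. Of 15 blood cell genes, 3 were lower in LSL 54 hens and 0 higher, with a median of -0.08. These were EPB42 with -0.26 and SLC4A1 with -0.23, both of the red cell membrane, and the T cell kinase LCK with -0.12. EPB42 ran from -0.27 to 0.29 with a median of -0.15 in LSL 54 hens, against -0.19 to 1.24 with a median of 0.16 in LSL 36 hens. The mean over the blood list, centred in each array set, ran from -0.17 to 0.17 with a median of -0.10 in LSL 54 hens and from -0.15 to 0.66 with a median of 0.01 in LSL 36 hens, and the highest value was that of hen 33, followed by 0.20 in hen 31. Without hens 1 and 27, 3 genes of the list were lower and 0 higher. These were EPB42, SLC4A1 and, in place of LCK, the globin gene HBAD. HBAD differed by -0.63 in that fit, by -0.47 with all LSL hens and by -0.24 without hen 33. Without hen 33, of group size 36, 2 genes were lower and 0 higher, with a median of -0.07. The shares over all genes were then 6.75% higher and 4.69% lower. EPB42 then differed by -0.17, SLC4A1 by -0.15, and RHAG, also of the red cell membrane, by -0.07 in place of -0.15. The blood and immunoglobulin lists thus had lower medians in the same group, and the part of blood content in the immunoglobulin values was not tested. IGLL1 differed by -1.06 and JCHAIN by -1.04 without hen 33. Defining markers at 0 cannot be given from centred values.

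Of 17 genes of oligodendrocytes and myelin, 3 were lower and 0 higher, with a median of -0.09. A positive difference was found for 2 of the 17, beside 6865 of 13009 over all genes. Such a skew was not particular to this list. Positive differences numbered 2 of 15 for neuronal, 2 of 15 for blood cell, 3 of 15 for striatal and 5 of 17 for microglia and macrophage genes. The other way, they numbered 15 of 20 for meningeal and 15 of 24 for vascular genes. The lower ones were GPR17 and PDGFRA, both of oligodendrocyte precursors, with -0.23 and -0.18, and MOBP, a myelin protein, with -0.14. GPR17 ran from -0.36 to 0.15 with a median of -0.16 in LSL 54 hens, against -0.09 to 0.68 with a median of 0.03 in LSL 36 hens, a difference of -0.23 ± 0.06 (SE, adjusted p = 0.33). The groups overlapped, and 3 genes of this list were also lower without hens 1 and 27. The mean over the list ran from -0.31 to 0.48 with a median of -0.06 in LSL 54 hens, against -0.25 to 0.28 with a median of 0.03 in LSL 36 hens. In LB the list median was 0.00.

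The remaining cell type and region lists had 0 to 2 genes in either direction. Of 15 neuronal genes, 0 were higher and 0 lower, with a median of -0.07. Of 16 astrocyte genes 1 was lower, SLC4A4 with -0.15, of 17 microglia and macrophage genes 1 was higher, the mannose receptor MRC1 with 0.14, and of 24 vascular genes 1 was lower, ESAM with -0.10. ABCB1, the drug efflux pump of the blood-brain barrier, differed by 0.46 ± 0.36 (SE), with 1.08 in hens 1 to 30 and -0.27 in hens 31 to 60. A second ABCB1 probe set differed by 0.31. Of 18 genes of choroid plexus and ependyma, the ciliary genes DNAH9 and CFAP43 were higher with 0.38 and 0.18 and FOLR1 was lower with -0.09. Of 20 meningeal genes, BMP5 was higher with 0.14 and TBX18 lower with -0.13. Of 15 striatal genes, RARB was higher and FOXP2 lower with -0.16, of 23 pallial genes FOXP2 alone was lower, and of 21 genes of thalamus, tectum, hypothalamus and cerebellum SIM1 was lower with -0.18. The part of these marker lists in the differences above was not tested.

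The spread among hens was of like size in the groups. The median SD within a group and array set was 0.141 over LSL 54 hens and 0.148 over LSL 36 hens, and 0.140 over LSL 36 hens without hen 1. The SD was larger in LSL 54 hens for 45.5% of probe sets.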

How the data were processed

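The authors hybridised RNA of the posterior cerebrum of each hen to 1 Affymetrix Chicken Genome array, analysed the images with GCOS and computed the deposited log2 values with RMA in GeneSpring GX, with centring on the median. Centring removes the level of expression, so no filter on dim probes was possible, every one of the 38535 probe sets entered the fit, and the number of hens limits the precision. Group size was compared within LSL in R 4.3.3 with limma 3.58.1 (lmFit, eBayes, array set as a block), 2-sided, with Benjamini-Hochberg adjustment over all probe sets and a threshold of 0.05. The methods' t-test, other normalizations, covariates and sets of hens were alternatives. Array measures were compared by permutation tests with 100000 resamples. The fit was tested on simulated data. Of all probe sets, 27178 had 1 symbol in the array's annotation, 177 several and 11180 none. Only those with 1 symbol were named, 26863 of which were also found in RefSeq's gene table for GRCg7b. The scope of the comparison and the gene lists were chosen with earlier results of these data known. Named are called genes, those next to them by unadjusted p with the same sign in both array sets up to 12 in each direction, the members of each list with the smallest unadjusted p up to 4, and 16 further genes, of which NR4A1 and OXT had no probe set named here. GABRB2, CA5A, CCN3, LARP4B, COMTD1, SUCLG2, IGLL1 and HBAD were named after their values were seen. The P-values set a difference against the spread between hens, and the spread between compartments could not be taken into account. The sequences of the probes and genes were not used here.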

Additional observations from a re-analysis of the deposited data

How the results depend on the processing

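No paired analysis was possible because no hen number is found in more than 1 group. In place of 1 called probe set, 0 were called in hens 1 to 30 alone, in hens 31 to 60 alone, with trend and robust variances, and without hens 1 and 27, and 2 with all 60 hens in the fit, where NSMF was added (adjusted p = 0.045). The fits within 1 array set have fewer hens, and the cause of the others was not tested. The other alternatives gave 1 call, MRPS16, with the methods' t-test, Welch's test, array weights, quantile or median normalization, right sides only, and covariates. The t-test and Welch's test had no block for the array set. Leaving out 1 hen at a time gave 1 to 2 calls, with MRPS16 called in all 28 fits at differences of 0.381 to 0.429. TRIM27.1 was added without hen 12 and MCCC2L without hen 55. The count at an unadjusted p under 0.05 was 3476 without hen 1 and 5810 without hen 17, the lowest and highest of these 28. For the interaction with line, every alternative that was run called 0 in limma, with 4975 at an unadjusted p under 0.05 in the main comparison.

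Signs turned only for differences near 0 or with large spread, none of which had passed. In hens 31 to 60 alone SYT1 was 0.018, IRF8 -0.066, SRI 0.248, ABCB1 -0.271, AVP 0.047, TPH2 -0.070, FKBP5 -0.101 and BDNF -0.003. In hens 1 to 30 alone CRH was 0.021, TH 0.001 and SUCLG2 0.023. Without hen 1 FKBP5 was -0.004 and BDNF -0.003, without hens 1 and 27 FKBP5 was -0.024, and with the array interquartile range as a covariate FKBP5 was -0.027 and BDNF -0.011. Leaving out hens and the interquartile range as a covariate were chosen after seeing the data.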
